A study of Mus musculus with 6 samples.

Results

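The Hox cluster genes encode homeodomain transcription factors and lie in 4 clusters, Hoxa, Hoxb, Hoxc and Hoxd. Members were all genes whose only annotated symbol was one of these cluster names followed by a number, and 33 such genes were measured among 18194 genes in all. The reference gene table lists 39 Hox cluster genes, and the other 6 were not analysed here. Each gene was read from the probe set with the highest mean over the 6 arrays, and levels are log2 of the RMA intensity.

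In the embryo, Hox genes are switched on in the order in which they lie along a cluster and give cells along the body axis their position. In blood, part of the clusters is active in stem and early progenitor cells and is silenced as cells mature. Hox proteins bind DNA together with TALE homeodomain partners of the Meis and Pbx families. Active clusters are kept open by trithorax proteins such as MLL (Kmt2a), and silent ones are held down by Polycomb complexes.

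Sorted bone marrow cells of adult mice were measured in 3 groups of 2 arrays each. E2A-KO LMPP came from mice without E2A on a C57bl/6 background, WT LMPP from C57bl/6 mice, and both were lineage-negative, SCA1+, KIT+ and FLT3hi, the gate of lymphoid-primed multipotent progenitors. WT LSK FLT3- came from C57bl/6 mice and passed the same gate except that they lacked surface FLT3, which leaves the fraction with the stem cells. Tcf3 encodes the E2A proteins, helix-loop-helix factors that bind a short DNA motif, the E-box. The sources used here do not give the kind of knockout allele or whether all cells of the mice carried it. They also do not say that replicate arrays stood for different mice or different sorts, so each p-value reflects array-to-array spread, part or all of which can be technical.

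Tcf3 did not check the genotype labels. Its 3 probe sets differed between E2A-KO LMPP and WT LMPP by -0.23, -0.09 and -0.33 (log2), with adjusted p of 0.425 to 0.869, and the sources used here do not say whether they lie in the deleted part. Flt3, the gate's receptor, had 10.70 and 10.76 in E2A-KO LMPP, 10.80 and 10.80 in WT LMPP, and 8.87 and 8.76 in WT LSK FLT3-. Kit, part of the gate of all 3 groups, had 8.85 and 8.47 in E2A-KO LMPP, 9.05 and 8.91 in WT LMPP, and 10.05 and 10.38 in WT LSK FLT3-, lower than in WT LSK FLT3- by 1.56 in E2A-KO LMPP (log2 change -1.56, adjusted p = 0.000388) and by 1.24 in WT LMPP (-1.24, adjusted p = 0.00124). The stem cell markers Tek, Mecom and Procr were lower in both LMPP groups than in WT LSK FLT3- (3 of 3 called). The lymphoid genes Il7r, Dntt and Rag1 were higher in WT LMPP than in WT LSK FLT3- (3 of 3) and lower in E2A-KO LMPP than in WT LMPP (3 of 3). Ly6a, the gene of SCA1, was not analysed here.

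Signal was split by level. Members whose mean was above log2 5 in at least 1 group numbered 6 of 33 (18.2%), against 52.4% of all genes, and the other 27 are called near the floor here. The 6 were Hoxa5, Hoxa7 and Hoxa9 of 9 measured Hoxa genes, Hoxb4 of 9 Hoxb genes, and Hoxc6 and Hoxc9 of 7 Hoxc genes, while 0 of 8 Hoxd genes passed. By position, all 6 lay in paralog groups 4 to 9, that is in the middle of their clusters. Hoxc6 was just inside the threshold, with a highest group mean of 5.02, and Hoxb3 was just outside it, with 4.94.

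Start-site windows (RefSeq, GRCm38.p6) are shown for 4 of these 6 genes, because E2A proteins bind E-boxes. The set of windows used here held none for Hoxc6 and Hoxc9. Each runs from 250 bases before the start of the gene to 50 after it, on the strand of the gene, and capitals mark the E-box CANNTG, which reads the same on both strands.
Hoxa5: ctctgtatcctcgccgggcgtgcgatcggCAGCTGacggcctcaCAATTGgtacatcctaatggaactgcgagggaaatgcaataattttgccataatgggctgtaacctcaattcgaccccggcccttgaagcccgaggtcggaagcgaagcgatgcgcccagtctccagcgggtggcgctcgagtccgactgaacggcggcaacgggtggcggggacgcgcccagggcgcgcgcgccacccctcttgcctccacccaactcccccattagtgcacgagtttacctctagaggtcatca
Hoxa7: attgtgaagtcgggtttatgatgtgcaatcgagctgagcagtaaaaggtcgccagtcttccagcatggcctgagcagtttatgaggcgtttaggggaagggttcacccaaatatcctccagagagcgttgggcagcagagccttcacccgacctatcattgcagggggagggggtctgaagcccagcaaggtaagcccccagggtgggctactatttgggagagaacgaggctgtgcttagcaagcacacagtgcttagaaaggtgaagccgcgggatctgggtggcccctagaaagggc
Hoxa9: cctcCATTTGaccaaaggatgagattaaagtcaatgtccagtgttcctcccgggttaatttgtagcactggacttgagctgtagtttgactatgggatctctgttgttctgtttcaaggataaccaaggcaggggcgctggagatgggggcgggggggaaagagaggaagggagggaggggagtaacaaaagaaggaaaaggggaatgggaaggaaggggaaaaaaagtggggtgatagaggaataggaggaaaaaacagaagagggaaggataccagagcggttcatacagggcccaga
Hoxb4: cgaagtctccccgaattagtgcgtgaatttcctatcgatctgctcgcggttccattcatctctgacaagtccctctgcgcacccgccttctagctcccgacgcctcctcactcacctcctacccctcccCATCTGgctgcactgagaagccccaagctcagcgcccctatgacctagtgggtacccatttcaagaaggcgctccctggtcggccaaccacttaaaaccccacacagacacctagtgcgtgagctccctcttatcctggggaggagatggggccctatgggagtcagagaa
The Hoxa5 window lies at chr6:52204538-52204837, minus strand, and holds 2 E-boxes, 221 and 206 bases before the start, and 29 CG dinucleotides. The Hoxa7 window, at chr6:52218524-52218823 on the minus strand, holds 0 E-boxes and 9 CG dinucleotides. The Hoxa9 window, at chr6:52227321-52227620 on the minus strand, holds 1 E-box, 246 bases before the start, and 4 CG dinucleotides. The Hoxb4 window, at chr11:96318017-96318316 on the plus strand, holds 1 E-box, 121 bases before the start, and 14 CG dinucleotides. The median over all 32851 windows of this length is 7 CG dinucleotides. E-boxes are common at this length: 72.3% of all windows and 17 of the 24 Hox windows (70.8%) hold at least 1. A match is a run of letters and not evidence of binding.

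**Figure D1:**
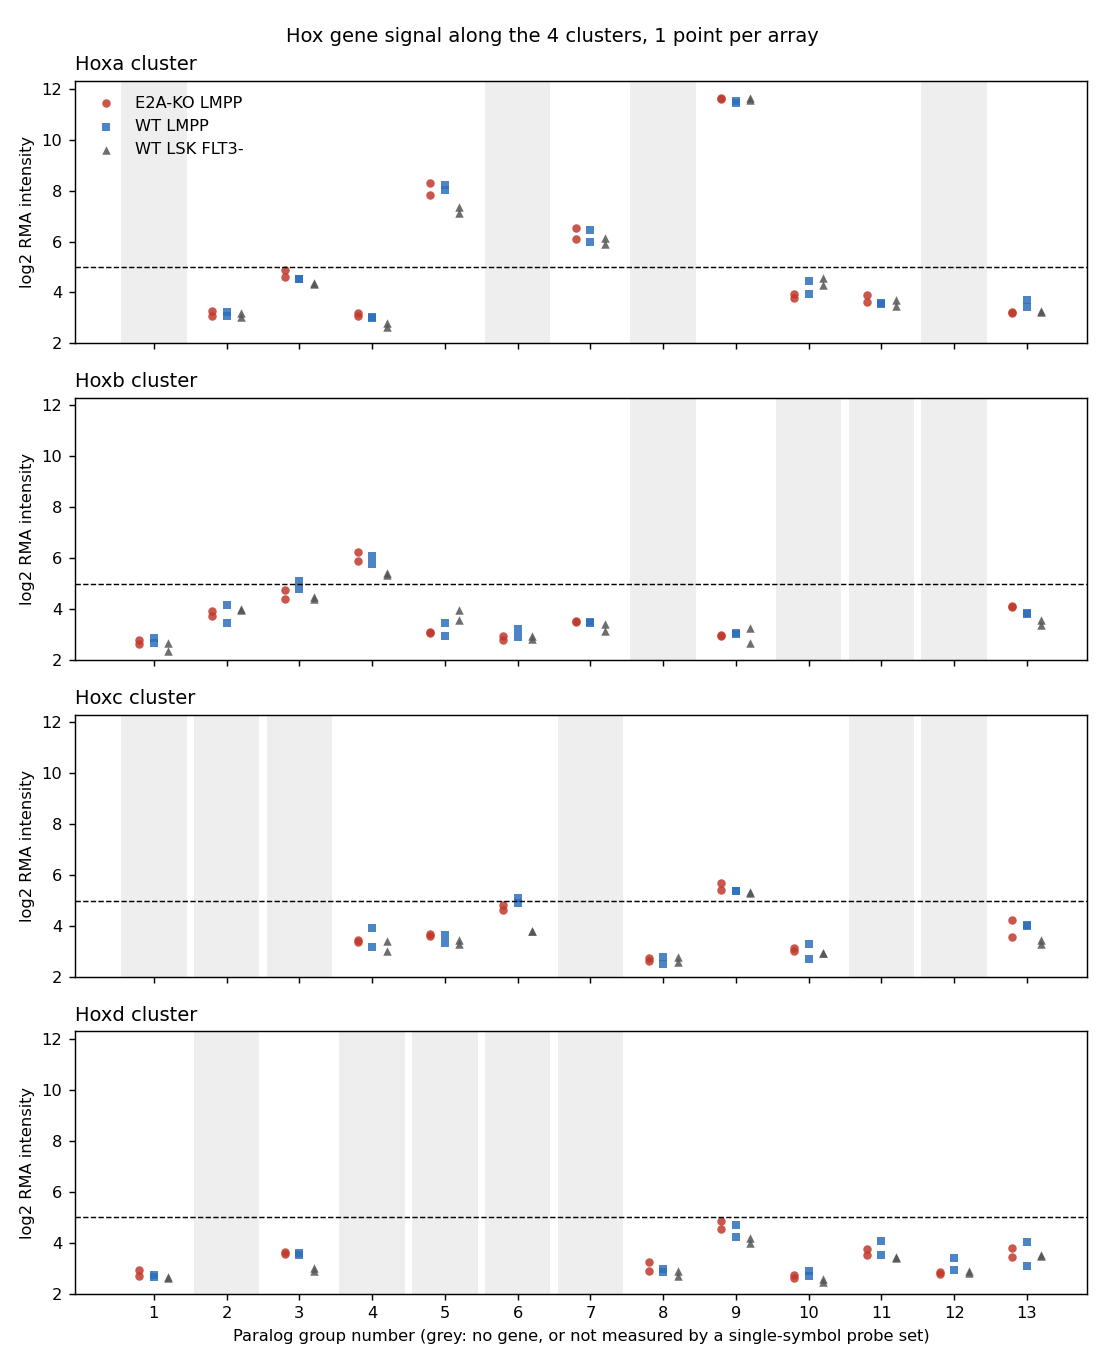
Log2 RMA intensity of the 33 Hox genes (vertical axis) by paralog group number (horizontal axis), with 1 panel per cluster and 1 point per array: red circles for E2A-KO LMPP, blue squares for WT LMPP and grey triangles for WT LSK FLT3-. Only 6 genes, in paralog groups 4 to 9, pass the dashed line at log2 5 in a group mean, and no Hoxd gene does.

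In the Hoxa cluster, Hoxa9, needed in mice for normal numbers of lymphoid and myeloid progenitors, had 11.62 and 11.61 in E2A-KO LMPP, 11.42 and 11.53 in WT LMPP, and 11.63 and 11.56 in WT LSK FLT3-. All 6 arrays lay within 11.42 to 11.63. Hoxa5, whose forced expression shifts human progenitors from erythroid to myeloid fate, had 7.82 and 8.28 in E2A-KO LMPP, 8.23 and 8.02 in WT LMPP, and 7.36 and 7.12 in WT LSK FLT3-. The 4 LMPP arrays mixed with each other and all lay above both LSK FLT3- arrays. Hoxa7, which is active together with Hoxa9 in MLL-rearranged leukaemia, had 6.52 and 6.11 in E2A-KO LMPP, 6.45 and 5.99 in WT LMPP, and 5.92 and 6.13 in WT LSK FLT3-. Its 3 groups overlapped.

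In the other clusters, Hoxb4, which expands mouse stem cells when forced on, had 6.23 and 5.89 in E2A-KO LMPP, 6.11 and 5.78 in WT LMPP, and 5.41 and 5.36 in WT LSK FLT3-. Both LMPP groups overlapped each other and lay above WT LSK FLT3-. Hoxc6 had 4.81 and 4.64 in E2A-KO LMPP, 4.91 and 5.12 in WT LMPP, and 3.81 and 3.79 in WT LSK FLT3-. Its groups did not overlap, with WT LMPP at the top and WT LSK FLT3- at the bottom. Hoxc9, a patterning gene of the thoracic region, had 5.70 and 5.40 in E2A-KO LMPP, 5.39 and 5.36 in WT LMPP, and 5.29 and 5.32 in WT LSK FLT3-. The groups kept apart, but by less than the arrays of E2A-KO LMPP differed from each other.

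The first comparison asked whether loss of E2A changed the clusters within LMPP. No Hox gene passed the test between E2A-KO LMPP and WT LMPP: 0 of 33 were called by limma at an adjusted p under 0.05, and 1 had an unadjusted p under 0.05. Among all genes 1.37% were called, 0.379% higher and 0.995% lower, so 0 of 33 is near the background. The members' changes ran from -0.37 to 0.28 with a median of 0.02, against a median of -0.02 over all genes. Of the 6 members above log2 5, Hoxc6 had the most negative change, -0.30 ± 0.14 (SE, 95% interval -0.61 to 0.02, adjusted p = 0.37), and Hoxc9 the most positive, 0.17 ± 0.14 (-0.15 to 0.49, adjusted p = 0.625). Hoxa9 differed by 0.14 (-0.15 to 0.43), Hoxa5 by -0.08 (-0.49 to 0.33), Hoxa7 by 0.09 (-0.36 to 0.54) and Hoxb4 by 0.11 (-0.27 to 0.49). Each gene's own interval bounds the change that its arrays allow, and a test that was not passed does not show that E2A loss left a gene as it was. Hoxa13, a gene of the far end of its cluster that patterns the limb, was the member with the unadjusted p under 0.05, at -0.36 (adjusted p = 0.277). Its arrays were near the floor, with group means of 3.21 in E2A-KO LMPP and 3.58 in WT LMPP.

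**Figure D2:**
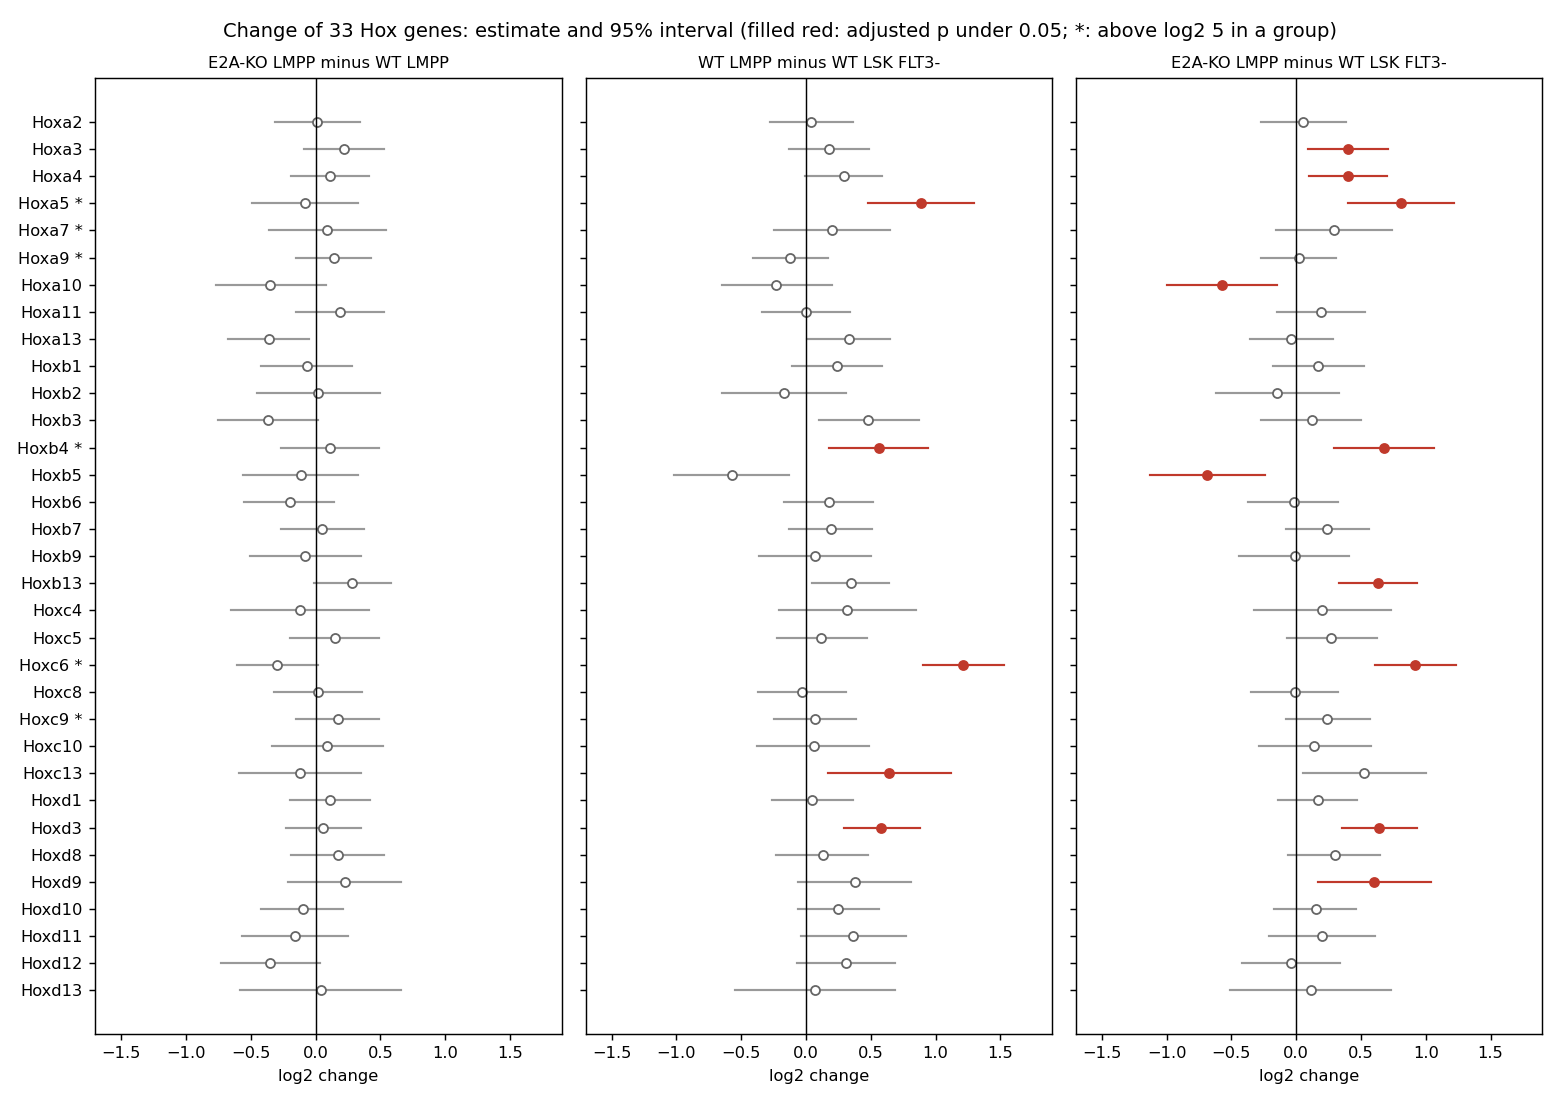
Log2 change of each of the 33 Hox genes with its 95% interval (horizontal axis), in 3 panels: E2A-KO LMPP minus WT LMPP, WT LMPP minus WT LSK FLT3-, and E2A-KO LMPP minus WT LSK FLT3-. Filled red points passed an adjusted p of 0.05 and asterisks mark members above log2 5: 0 points are filled in the first panel, 5 in the second and 10 in the third.

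The second comparison set WT LMPP against WT LSK FLT3-, the step at which surface FLT3 appears. Hoxa5 was higher in WT LMPP by 0.89 ± 0.18 (log2, SE, 1.85-fold, adjusted p = 0.00655), Hoxb4 by 0.56 ± 0.17 (1.48-fold, adjusted p = 0.0311) and Hoxc6 by 1.21 ± 0.14 (adjusted p = 0.000507). Hoxc6 counted as above log2 5 through WT LMPP alone, the group in which it is high, and on both WT LSK FLT3- arrays it read below the median probe set (medians 3.905 and 3.903), so its change has no exact fold. In all, 5 of 33 members were called higher (15.2%) and 0 lower. Of all genes 34.1% were called in either direction, 10.4% higher and 23.7% lower, but these shares depended on level. Among the 27 members near the floor, 2 were called higher (7.41%) and 0 lower, against 13.2% and 3.98% of all such genes. Among the 6 above log2 5, 3 were called higher, Hoxc6 among them, and 0 lower, against 7.84% and 41.6% of all such genes. Since RNA came from pools of cells, more cells of a kind and more RNA per cell cannot be told apart in any of these differences. Hoxa9 did not pass, at -0.12 (95% interval -0.41 to 0.17, adjusted p = 0.486), nor did Hoxa7 at 0.20 (-0.25 to 0.65, adjusted p = 0.462) or Hoxc9 at 0.07 (-0.25 to 0.39, adjusted p = 0.719). The sign of Hoxa9 depended on the scaling, with 0.10 after quantile normalization of the 6 arrays, as did that of Hoxc9, with -0.03 after centring on array medians.

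Precision differed among the 3 that rose. Hoxc6 kept its call without any 1 of the 6 arrays. The Hoxa5 call was lost without WT LSK FLT3- replicate 2 (0.77, adjusted p = 0.0721). The Hoxb4 call was lost without WT LMPP replicate 1 (0.40), or without WT LSK FLT3- replicate 1 (0.59) or replicate 2 (0.54). Centring on array medians also ended it (0.46, adjusted p = 0.0596), as did averaging its probe sets (0.30, adjusted p = 0.0906).

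Among members near the floor, Hoxd3, which shapes the upper neck vertebrae, had 3.56 and 3.65 in E2A-KO LMPP, 3.51 and 3.59 in WT LMPP, and 2.91 and 3.02 in WT LSK FLT3-. All LMPP arrays were above both LSK FLT3- arrays, and WT LMPP was higher by 0.58 (adjusted p = 0.00928). Hoxc13, a hair follicle gene, had 3.56 and 4.25 in E2A-KO LMPP, 4.03 and 4.02 in WT LMPP, and 3.46 and 3.30 in WT LSK FLT3-. The LMPP arrays were again above, and WT LMPP was higher by 0.64 (adjusted p = 0.0419). Quantile normalization ended both calls, at 0.41 (adjusted p = 0.0609) for Hoxd3 and 0.47 (adjusted p = 0.189) for Hoxc13, and centring on array medians ended that of Hoxc13 (adjusted p = 0.0752). Hoxd3 also lost its call without WT LSK FLT3- replicate 1 (0.53, adjusted p = 0.0927) or replicate 2 (0.64, adjusted p = 0.0547), and Hoxc13 without any 1 of its 4 arrays (adjusted p 0.0996 to 0.213).

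The low end of the arrays moved with this comparison. The lower quartile of all probe sets was 3.19 to 3.22 on the LMPP arrays and 3.04 on both LSK FLT3- arrays, while the upper quartile was 5.78 to 5.82 on the LMPP arrays, against 6.13 to 6.15 on those of WT LSK FLT3-. The 27 Hox genes near the floor had a median change of 0.18 between WT LMPP and WT LSK FLT3-, and all 8662 genes near the floor had 0.19, with 77.0% of them above 0 against 22 of 27 for the Hox genes. After quantile normalization the Hox median was 0.01 and 15 of 27 changes were above 0. That scaling also changed the split of calls over all genes to 1634 higher and 1741 lower, against 1889 higher and 4309 lower without it, and centring on array medians gave 1161 higher and 5376 lower. Under both of these scalings 4 Hox genes were called: Hoxa5 and Hoxc6 higher and Hoxb5 lower in each, with Hoxb4 higher after quantile normalization and Hoxd3 higher after centring.

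The third comparison, E2A-KO LMPP against WT LSK FLT3-, uses the same LSK FLT3- arrays as the second and is not a repeat of it. Of the 33 members, 8 were called higher (24.2%) and 2 lower (6.06%). Of all genes 37.5% were called in either direction, 11.0% higher and 26.5% lower, and here too the shares depended on level. Among the 27 members near the floor, 5 were called higher (18.5%) and 2 lower (7.41%), against 14.9% and 4.26% of all such genes. Among the 6 above log2 5, 3 were called higher and 0 lower, against 7.45% and 46.7% of all such genes. Hoxc6 was higher in E2A-KO LMPP by 0.92 ± 0.14 (adjusted p = 0.00153), Hoxa5 by 0.81 ± 0.18 (adjusted p = 0.00866) and Hoxb4 by 0.68 ± 0.17 (adjusted p = 0.0139). Hoxa9 differed by 0.02 (95% interval -0.27 to 0.31). Averaging the probe sets of each gene ended the Hoxb4 call (0.36, adjusted p = 0.0519). Without WT LSK FLT3- replicate 2 the calls of Hoxa5 (0.69, adjusted p = 0.0859) and Hoxb4 (0.65, adjusted p = 0.0944) were lost, and that of Hoxb4 also without replicate 1 of WT LSK FLT3- (adjusted p = 0.0792) or of E2A-KO LMPP (adjusted p = 0.0793).

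The other calls of this comparison were near the floor. Hoxd3 was higher in E2A-KO LMPP by 0.64 (adjusted p = 0.00542). Hoxb13, a gene of the tail end of the body, had 4.10 and 4.13 in E2A-KO LMPP, 3.86 and 3.80 in WT LMPP, and 3.58 and 3.40 in WT LSK FLT3-, a difference of 0.63 between the outer groups (adjusted p = 0.00629). Its 3 groups were in steps with no overlap. Hoxd9, a limb patterning gene, had 4.53 and 4.84 in E2A-KO LMPP, 4.71 and 4.21 in WT LMPP, and 4.18 and 3.98 in WT LSK FLT3- (0.60, adjusted p = 0.0361). Hoxa3, needed for the thymus and parathyroid, had 4.62 and 4.88 in E2A-KO LMPP, 4.54 and 4.53 in WT LMPP, and 4.37 and 4.33 in WT LSK FLT3- (0.40, adjusted p = 0.0471). For both, E2A-KO LMPP lay above WT LSK FLT3- on every array. Hoxa4 had 3.18 and 3.06 in E2A-KO LMPP, 3.0 and 3.04 in WT LMPP, and 2.64 and 2.81 in WT LSK FLT3- (0.40, adjusted p = 0.0421). After quantile normalization Hoxd9 (adjusted p = 0.102), Hoxa3 (0.0983) and Hoxa4 (0.258) were no longer called, while Hoxa7 (0.73, adjusted p = 0.0408) and Hoxc9 (0.54, adjusted p = 0.032) were called higher. Centring on array medians also ended the calls of Hoxd9 (adjusted p = 0.0833), Hoxa3 (0.167) and Hoxa4 (0.154). Hoxa4 lost its call without any 1 of the 4 arrays, Hoxa3 and Hoxd9 without any 1 except E2A-KO LMPP replicate 1, Hoxb13 without WT LSK FLT3- replicate 2 (adjusted p = 0.0754) and Hoxd3 without replicate 1 of that group (0.064). Hoxa3 and Hoxa4 were also not called with all probe sets as the unit or a replicate block, nor Hoxa3 with a robust variance trend or averaged probe sets.

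Both members called lower in this comparison have been studied in stem and progenitor cells. Hoxb5, a marker of long-term stem cells in mice, had 3.06 and 3.10 in E2A-KO LMPP, 3.45 and 2.94 in WT LMPP, and 3.57 and 3.96 in WT LSK FLT3-. Both LMPP groups lay below WT LSK FLT3-, by 0.69 for E2A-KO LMPP (log2 change -0.69, adjusted p = 0.0245) and with a change of -0.57 for WT LMPP that just missed the threshold (adjusted p = 0.0505). Hoxa10, which raises myeloid progenitor numbers when forced on, had 3.93 and 3.77 in E2A-KO LMPP, 4.45 and 3.95 in WT LMPP, and 4.29 and 4.56 in WT LSK FLT3-. E2A-KO LMPP was lowest, with a change of -0.57 (adjusted p = 0.0396). The call of Hoxa10 did not survive leaving out an array of either group (adjusted p 0.0776 to 0.242), taking all probe sets as the unit (adjusted p = 0.0503) or averaging its probe sets (-0.03, adjusted p = 0.874). That of Hoxb5 was lost without WT LSK FLT3- replicate 2 (-0.49, adjusted p = 0.192) or either E2A-KO LMPP array (adjusted p = 0.0898 and 0.0717).

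The remaining 19 members near the floor passed no test in any of the 3 comparisons. They were Hoxa2, Hoxa11 and Hoxa13 in the Hoxa cluster, with array values from 3.04 to 3.91. In the Hoxb cluster Hoxb1, Hoxb2, Hoxb3, Hoxb6, Hoxb7 and Hoxb9 spanned 2.38 to 5.10. Hoxc4, Hoxc5, Hoxc8 and Hoxc10 spanned 2.51 to 3.92, and Hoxd1, Hoxd8, Hoxd10, Hoxd11, Hoxd12 and Hoxd13 spanned 2.48 to 4.06. Over all 33 members, 17 were below the median probe set of their own array on every array, 8 were above it on every array, and 8 fell on both sides. Values this low are compressed, so that a difference in RNA reads as a smaller log2 change, and a level near the floor does not show that a gene was silent.

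Part of the pattern rested on the choice of probe set. Of the 33 genes, 22 had 1 single-symbol probe set and 11 had more, 48 in all. The probe sets chosen for Hoxa5 and Hoxc6 carry the suffix _x_at, which Affymetrix gives to sets with probes that can match other transcripts too. A second Hoxa5 probe set had 7.09 and 6.95 in E2A-KO LMPP, 6.50 and 6.58 in WT LMPP, and 6.41 and 6.51 in WT LSK FLT3-. It put E2A-KO LMPP above the 2 WT groups, which overlapped. Its change was 0.08 between WT LMPP and WT LSK FLT3- (adjusted p = 0.716), 0.56 between E2A-KO LMPP and WT LSK FLT3- (adjusted p = 0.0164), and 0.48 between E2A-KO LMPP and WT LMPP (adjusted p = 0.165).

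Hoxc6 had 2 further probe sets. The one without a suffix that reads near the chosen one had 4.57 and 4.41 in E2A-KO LMPP, 4.60 and 4.46 in WT LMPP, and 3.88 and 3.80 in WT LSK FLT3-. It showed the same direction, with WT LMPP higher than WT LSK FLT3- by 0.69 (adjusted p = 0.00894). The other stayed between 3.13 and 3.76 on all 6 arrays and differed by -0.23 (adjusted p = 0.394). The second Hoxb4 probe set stayed between 4.28 and 4.39 on all 6 arrays, with a change of 0.04 (adjusted p = 0.844).

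For Hoxa9 the second probe set had 6.27 and 6.13 in E2A-KO LMPP, 6.03 and 5.81 in WT LMPP, and 5.65 and 5.69 in WT LSK FLT3-. Unlike the chosen set, it placed the groups in steps, with 0.53 between E2A-KO LMPP and WT LSK FLT3- (adjusted p = 0.025) and 0.25 between WT LMPP and WT LSK FLT3- (adjusted p = 0.241). The second Hoxa10 probe set had 3.14 and 3.66 in E2A-KO LMPP, 3.61 and 3.56 in WT LMPP, and 2.81 and 2.96 in WT LSK FLT3-, which is higher in WT LMPP by 0.70 (adjusted p = 0.0237). Hoxb3, a neighbour of Hoxb4 that acts with it in mouse blood stem cells, had 4.39 and 4.75 in E2A-KO LMPP, 4.78 and 5.10 in WT LMPP, and 4.5 and 4.41 in WT LSK FLT3- on its chosen set. On its second set it had 4.03 and 4.11 in E2A-KO LMPP, 4.64 and 4.57 in WT LMPP, and 4.99 and 4.92 in WT LSK FLT3-. The second set fell in steps, by 0.89 between E2A-KO LMPP and WT LSK FLT3- (log2 change -0.89, adjusted p = 0.00188), where the chosen set gave 0.12 (adjusted p = 0.612). These p-values of single probe sets were adjusted over all 45101 probe sets, except the last, which was adjusted over genes.

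**Figure D3:**
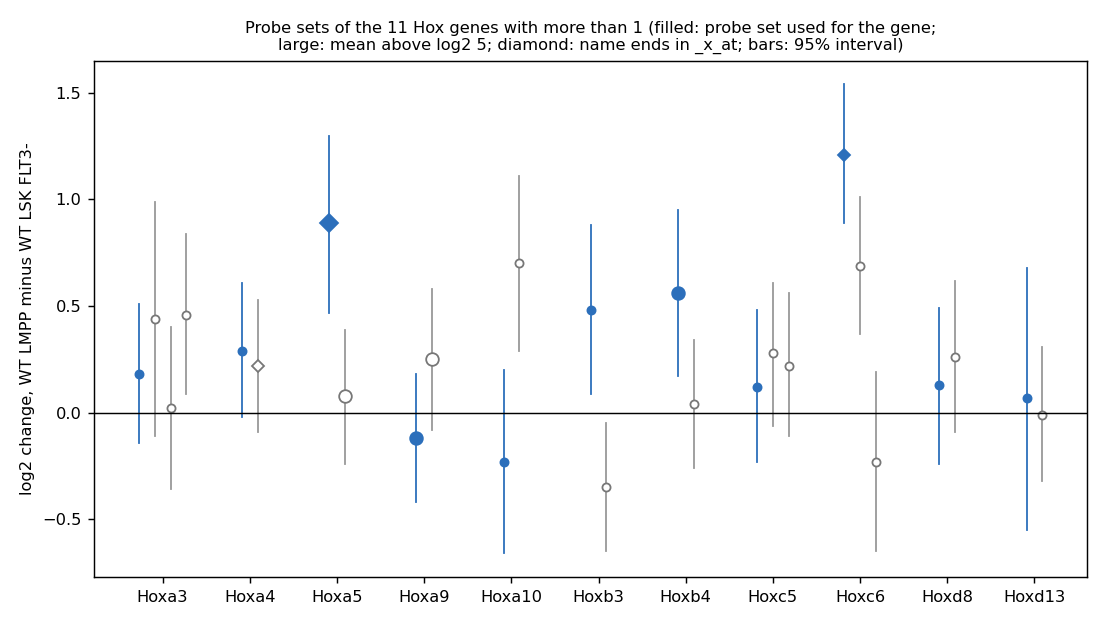
Log2 change between WT LMPP and WT LSK FLT3- (vertical axis, bars are 95% intervals) for each probe set of the 11 Hox genes with more than 1 (horizontal axis). Filled blue points are the probe sets used for the gene, diamonds have names ending in _x_at, and large points have a mean above log2 5: the sets of Hoxa5 read 0.89 and 0.08, those of Hoxb4 0.56 and 0.04, and those of Hoxc6 1.21, 0.69 and -0.23.

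Meis1, the TALE cofactor that drives leukaemia together with Hoxa9 in mice, had 9.52 and 9.66 in E2A-KO LMPP, 9.46 and 9.66 in WT LMPP, and 10.60 and 10.64 in WT LSK FLT3-. The LMPP groups overlapped and lay below WT LSK FLT3-, with changes of -1.03 for E2A-KO LMPP (adjusted p = 0.000866) and -1.06 for WT LMPP (adjusted p = 0.00084). Pbx3, a further partner of Hoxa9, had 5.39 and 5.22 in E2A-KO LMPP, 5.50 and 5.42 in WT LMPP, and 7.04 and 6.82 in WT LSK FLT3-. It also lay lower in both LMPP groups, with -1.63 for E2A-KO LMPP (adjusted p = 0.000113) and -1.47 for WT LMPP (adjusted p = 0.000209). Of 8 measured TALE genes, 1 was called higher and 2 lower in WT LMPP than in WT LSK FLT3-, shares near the 10.4% and 23.7% of all genes. The riser was Pknox2, near the floor, at 0.50 (adjusted p = 0.0499). Its other probe set, also near the floor, gave 0.03 for WT LMPP (adjusted p over probe sets = 0.902) and -0.14 for E2A-KO LMPP (0.538). Both changes are relative to WT LSK FLT3-. Against the same cells, E2A-KO LMPP had 1 called higher (12.5%), Pknox2 at 0.76, and 3 lower (37.5%), beside 11.0% and 26.5% of all genes. After Meis1 and Pbx3, the third called lower was Pbx2 at -0.39 (adjusted p = 0.0472). The median of the list was -0.24 in E2A-KO LMPP and 0.01 in WT LMPP, each against WT LSK FLT3-, where all genes had -0.02 and -0.01. Between E2A-KO LMPP and WT LMPP 0 of 8 were called, with Meis2 at -0.54 (adjusted p = 0.213) and Meis3 at 0.40 (adjusted p = 0.287) farthest from 0. The other 2 Meis1 probe sets went against the chosen one. Relative to WT LSK FLT3- they were higher in E2A-KO LMPP, by 1.01 (adjusted p over probe sets = 0.00316) and 0.65 (0.043), and changed by 0.17 (0.491) and 0.12 (0.703) in WT LMPP. The brighter of these Meis1 sets, with a mean of 7.13, was also higher in E2A-KO LMPP than in WT LMPP. Its change was 0.83 (adjusted p over probe sets = 0.066), and that of the dimmer set was 0.53 (0.302). The other Pbx3 set, near the floor, gave 0.07 for E2A-KO LMPP and -0.15 for WT LMPP, each against WT LSK FLT3-.

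Among the trithorax and MLL complex genes, 5 of 14 were called lower and 0 higher in WT LMPP than in WT LSK FLT3-, with a list median of -0.35. All 14 lie above log2 5, where 41.6% of all genes were called lower with a median of -0.34, so 5 of 14 (35.7%) is near the background. Quantile normalization left 1 called higher and 2 lower, and centring on array medians gave 8 lower. Mllt3, a subunit of the elongation complexes that MLL fusions recruit and a stem cell maintenance factor in human blood, had 5.94 and 5.82 in E2A-KO LMPP, 5.82 and 6.01 in WT LMPP, and 7.73 and 7.87 in WT LSK FLT3-. The LMPP groups overlapped and lay far below WT LSK FLT3-, with -1.92 for E2A-KO LMPP (adjusted p = 5.42e-05) and -1.89 for WT LMPP (adjusted p = 5.4e-05). All 3 Mllt3 probe sets were lower in WT LMPP, by 1.89, 1.82 and 0.92 (log2 changes -1.89, -1.82 and -0.92). Men1, which tethers MLL to chromatin, changed by -0.68 in WT LMPP (adjusted p = 0.00613), and Ash2l, a core subunit of the methyltransferase, by -0.69 (adjusted p = 0.00872). For each, 1 other probe set above log2 5 gave -0.02 (Men1, adjusted p over probe sets = 0.945) or 0.0 (Ash2l, 0.991), while a dimmer Men1 set gave -1.03 (0.00628). Mllt10, a partner of the H3K79 methyltransferase Dot1l, changed by -0.99 (adjusted p = 0.00139), but its other 3 probe sets gave 0.39, 0.54 and 0.49. The last of these 3, with a mean of 4.79, was also higher in E2A-KO LMPP than in WT LMPP, by 0.73 (adjusted p over probe sets = 0.0537). Relative to WT LSK FLT3-, E2A-KO LMPP had 4 of 14 called lower (28.6%) and 0 higher, with a median of -0.24. Of all genes above log2 5, 46.7% were called lower and 7.45% higher there, with a median of -0.39. In E2A-KO LMPP against WT LMPP 0 of 14 were called, where Aff1 at -0.38 (adjusted p = 0.202) and Mllt10 at 0.33 (adjusted p = 0.334) were farthest from 0. Kmt2a, chosen after its values were seen, had 7.36 and 7.27 in E2A-KO LMPP, 7.57 and 7.34 in WT LMPP, and 7.49 and 7.37 in WT LSK FLT3-, and stayed within 7.27 to 7.57.

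**Figure D4:**
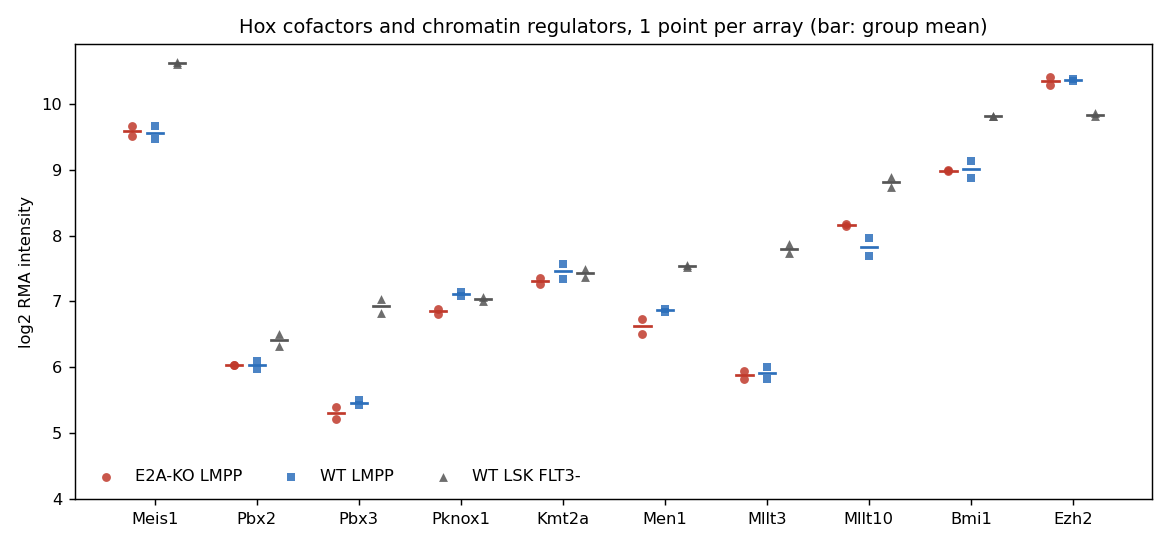
Log2 RMA intensity (vertical axis) of 10 Hox cofactors and chromatin regulators (horizontal axis), with 1 point per array and a bar at each group mean: red circles for E2A-KO LMPP, blue squares for WT LMPP and grey triangles for WT LSK FLT3-. Meis1, Pbx3, Mllt3 and Bmi1 are lower in both LMPP groups than in WT LSK FLT3-, Ezh2 is higher, and Kmt2a stays between 7.27 and 7.57.

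Polycomb genes were called in both directions. Bmi1, a PRC1 subunit needed for stem cell self-renewal, had 8.99 and 8.98 in E2A-KO LMPP, 8.87 and 9.14 in WT LMPP, and 9.82 and 9.81 in WT LSK FLT3-. It was lower in WT LMPP with a change of -0.81 (adjusted p = 0.00306), and its second probe set gave -0.98. Ezh2, the H3K27 methyltransferase of PRC2, had 10.41 and 10.29 in E2A-KO LMPP, 10.38 and 10.35 in WT LMPP, and 9.86 and 9.81 in WT LSK FLT3-. WT LMPP was higher by 0.53 (adjusted p = 0.0129). In WT LMPP against WT LSK FLT3- 1 of 12 was called higher and 3 lower, against 10.4% and 23.7% of all genes (median -0.16), the other 2 being Rnf2 at -0.52 (adjusted p = 0.0156) and Eed at -0.42 (adjusted p = 0.0367). The same counts, 1 higher and 3 lower, held in E2A-KO LMPP against WT LSK FLT3- (median -0.28), with Ezh2 at 0.52, Bmi1 at -0.83, Rnf2 at -0.78 and Phc1 at -0.48. Of all genes 11.0% were called higher and 26.5% lower there, and of genes above log2 5 7.45% and 46.7%. Rnf2 has 4 further probe sets. The brightest, with a mean of 7.48, also fell in WT LMPP relative to WT LSK FLT3- (-1.01, adjusted p over probe sets = 0.00289). The other 3, near the floor, went the other way, by 1.06 (0.00199), 0.56 (0.0765) and 0.20 (0.318). Between E2A-KO LMPP and WT LMPP 0 of 12 were called, with Ezh1 at -0.31 (adjusted p = 0.336) and Cbx8 at -0.29 (adjusted p = 0.496) farthest from 0.

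The Cdx genes, which switch on Hox clusters in the embryo, were all near the floor. Cdx1 was higher in WT LMPP than in WT LSK FLT3- by 0.46 (adjusted p = 0.0371, 1 of 3 called), and Cdx4 in E2A-KO LMPP by 0.46 (adjusted p = 0.0396, 1 of 3 called). Quantile normalization and centring on array medians each left 0 of 3 called in both comparisons. Between E2A-KO LMPP and WT LMPP 0 of 3 were called, with Cdx1 at -0.40 (adjusted p = 0.246) and Cdx4 at 0.30 (adjusted p = 0.409).

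Genes that Hoxa9 or Meis1 regulate in mouse leukaemia cells were called in both directions. In WT LMPP against WT LSK FLT3- 2 of 9 were called higher and 3 lower, with a list median of -0.12, beside 34.1% of all genes called in either direction. All 9 lie above log2 5, where 7.84% of all genes were called higher and 41.6% lower. After quantile normalization 3 were called higher and 0 lower. Flt3, also the gate's marker, was higher by 1.99 (adjusted p = 2.56e-05). Igf1r, the insulin-like growth factor receptor, was lower with -0.55 (adjusted p = 0.0199), the transcription factor Myb with -0.49 (adjusted p = 0.027), and Erg, a stem cell transcription factor, with -0.47 (adjusted p = 0.0236). E2A-KO LMPP against WT LSK FLT3- had 2 of 9 called higher and 3 lower (median -0.09), with Flt3 at 1.92 and Erg at -0.71. Of all genes above log2 5, 7.45% were called higher and 46.7% lower in that comparison. In LMPP, E2A-KO against WT gave 0 of 9 calls, and Lmo2 at 0.49 (adjusted p = 0.195) and Sox4 at -0.29 (adjusted p = 0.449) were farthest from 0. With a robust variance trend in limma, Lmo2 was called higher (adjusted p = 0.00993).

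The genes beside the clusters were called about as often as all genes in WT LMPP against WT LSK FLT3-. The 3 nearest measured genes on each side of each cluster made 24. In WT LMPP against WT LSK FLT3- 2 of 24 were called higher (8.33%) and 5 lower (20.8%), against 10.4% and 23.7% of all genes, with a median of -0.16. Lnpk, beyond Hoxd13, was lower with -1.33 (adjusted p = 0.00139), Atf7, beyond Hoxc13, with -0.92 (adjusted p = 0.00593), Skap2, beside the Hoxa cluster, with -0.85 (adjusted p = 0.00161), and Smug1, beyond Hoxc4, with -0.77 (adjusted p = 0.00595). The other Atf7 probe set gave 0.29 (adjusted p over probe sets = 0.197), and the other 2 Lnpk sets gave -0.59 (0.0169) and -0.20 (0.313). The other 2 Skap2 sets gave -0.40 (0.0665) and -0.26 (0.267). On its chosen set, Skap2 had 10.52 and 10.52 in E2A-KO LMPP, 10.29 and 10.25 in WT LMPP, and 11.05 and 11.20 in WT LSK FLT3-. Hoxa5, of the cluster next to it, was higher in LMPP on its chosen set, while its second set gave 0.08 in WT LMPP. Relative to WT LSK FLT3-, E2A-KO LMPP had 4 of 24 called higher (16.7%) and 7 lower (29.2%), against 11.0% and 26.5% of all genes. The list median was -0.05, with Lnpk at -1.45, Smug1 at -0.82, Skap1 at 0.71 and Cbx5 at 0.63 farthest from 0. Skap1 lies near the floor, and its other probe sets gave -0.05 and 0.10. The other Cbx5 sets gave 0.04, 0.87, -0.06 and -0.37. Between E2A-KO LMPP and WT LMPP 0 of 24 were called (median 0.10), with Ttll6 at 0.45 (adjusted p = 0.196) and Atf7 at 0.42 (adjusted p = 0.336) farthest from 0.

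Markers of other cells differed between the same groups. The summed intensity of the 6 mature myeloid markers was 489 to 543 in E2A-KO LMPP, 2636 to 2689 in WT LMPP, and 1436 to 1539 in WT LSK FLT3-, with 6 of 6 called lower in E2A-KO LMPP than in WT LMPP and 5 of 6 higher in WT LMPP than in WT LSK FLT3-. The 4 mast cell markers summed to 61.1 to 61.2 in E2A-KO LMPP, 44.2 to 45.5 in WT LMPP, and 265 to 271 in WT LSK FLT3-, with 3 of 4 lower in WT LMPP than in WT LSK FLT3-. The 9 stroma and endothelium markers summed to 217 to 229 in E2A-KO LMPP, 347 to 367 in WT LMPP, and 357 to 383 in WT LSK FLT3-, and 1 was called lower and 1 higher in WT LMPP than in WT LSK FLT3-. In E2A-KO LMPP 1 of the 9, Pdgfrb, was called lower than in WT LMPP, by 1.15 (log2 change -1.15, adjusted p = 0.00654). B lineage, T cell and erythroid markers summed to at most 96.6, 134 and 34.9 in E2A-KO LMPP, 104, 118 and 38.6 in WT LMPP, and 96.7, 88.7 and 48.9 in WT LSK FLT3-. Relative to WT LSK FLT3-, 1 of 4 B lineage markers was called higher in E2A-KO LMPP and 2 of 4 in WT LMPP, 2 of 4 T cell markers were called higher in each, and of 2 erythroid markers 1 was called lower in E2A-KO LMPP and 1 lower and 1 higher in WT LMPP. Among all genes 10.4% were called higher and 23.7% lower in WT LMPP than in WT LSK FLT3-. For E2A-KO LMPP the shares were 11.0% and 26.5% against WT LSK FLT3-, and 0.379% and 0.995% against WT LMPP. The called B lineage genes, Cd79a and Ebf1, lay near the floor, with WT LMPP means of 4.11 and 3.75. Of all genes near the floor, 13.2% were called higher against WT LSK FLT3- for WT LMPP and 14.9% for E2A-KO LMPP. The part of the markers of other cells in the Hox results was not tested.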

How the data were processed

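The deposited values are probe set intensities on a linear scale, which the authors made with RMA, as the submitters' processing notes state without a version. Per the labels' protocols, RNA from sorted cells was amplified in 2 rounds with a kit that favours the 3' end of transcripts. The sources used here do not say whether all arrays were normalized together. Log2 of the deposited values was taken before any test.

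Of 45101 probe sets, 34958 had 1 symbol, 932 several and 9211 none, and only those with 1 symbol named a gene. No filter on low values was used, so all 33 Hox genes were tested. Groups came from the sample titles. A free-text description that calls every sample a wild-type LMPP was set aside. Tests used limma 3.58.1 in R 4.3.3 on all 6 arrays, with 1 mean per group, 3 residual and 5.8 prior degrees of freedom, two-sided p-values adjusted by Benjamini and Hochberg over 18194 genes, and a threshold of 0.05. The test was checked on simulated data. The number of arrays limits the precision.

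The Hox members, the lists (TALE cofactors, trithorax and MLL complex, Polycomb, Cdx regulators, genes regulated by Hoxa9 or Meis1, flanking genes and markers) and the threshold of log2 5 were chosen with earlier results of these data known. Named were all Hox members and, per list, up to 4 called genes with the largest change in a comparison, or 2 where none was called. Genes named otherwise are said to be. Flanking genes follow the order of a GRCm38.p6 gene table. Promoter windows are from RefSeq; other motifs were not searched.

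The alternatives were quantile normalization, centring on array medians, averaging the probe sets of each gene, leaving out the dimmest 40% of genes, a robust variance trend, a replicate block, only the 4 arrays of a comparison, all probe sets as the unit, leaving out each array, a threshold of 0.1 on the adjusted p and a minimum change of 2-fold. Reading each further probe set of a Hox gene was added after seeing the data. Python 3.11.15 with matplotlib 3.10.9 drew the figures.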

Additional observations from a re-analysis of the deposited data

How the results depend on the processing

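The count of Hox genes called between E2A-KO LMPP and WT LMPP was 0 under all 16 alternatives, including an adjusted p under 0.1. These are not 16 separate checks, since a 2-fold minimum cannot add calls. Leaving out either WT LSK FLT3- array is also the same fit here as only the 4 arrays of the comparison. The count of 0 takes 1 value per gene. As single probe sets, a second Hoxd13 set (0.68, adjusted p over probe sets = 0.0662) and a set shared by Hoxb7 and Hoxb8 (0.87, 0.0611) were under 0.1, both near the floor. Between WT LMPP and WT LSK FLT3- the count of 5 became 8 at an adjusted p under 0.1, 1 with a 2-fold minimum (Hoxc6), and 1 to 8 on leaving out an array, with 1 (Hoxc6) without WT LSK FLT3- replicate 2, 2 (Hoxa5 and Hoxc6) without replicate 1 of that group and 8 without WT LMPP replicate 2. Between E2A-KO LMPP and WT LSK FLT3- the count of 10 became 6 without the dimmest 40% of genes, where 10 of the 33 members were still tested, 0 with a 2-fold minimum, and 2 to 10 on leaving out an array, with 2 without WT LSK FLT3- replicate 2, 4 without replicate 1 and 5 without E2A-KO LMPP replicate 2. A fit that leaves out an array assumes that the lone array varies like the other groups. The number of members above log2 5 was 4 to 9 under its alternatives, with 9 at a threshold of 4.5 and 4 at a threshold of 6. Replicate numbers did not pair the arrays (correlations of deviations 0.023, -0.042 and -0.022), and with the replicate block the counts were 0, 6 and 8. Signs turned for Hoxc6 in a probe set near the floor (-0.12 for E2A-KO LMPP and -0.23 for WT LMPP, each against WT LSK FLT3-) and for Hoxa10 in a second probe set (0.51 and 0.70). Averaging the probe sets of each gene turned Mllt10 (0.36 for E2A-KO LMPP, 0.11 for WT LMPP), Rnf2 (0.06 for WT LMPP), Meis1 (0.21 for E2A-KO LMPP) and Hnrnpa1 (0.02 for E2A-KO LMPP), and quantile normalization turned Pbx2 (0.08 for E2A-KO LMPP), where the cause was not tested. In the other gene lists 0 members were called between E2A-KO LMPP and WT LMPP under every alternative, except Lmo2 with a robust variance trend. As single probe sets, a further Meis1 set (0.83, adjusted p over probe sets = 0.066) and a further Mllt10 set (0.73, 0.0537) were under 0.1 there. Over all genes the calls were 89 to 548 (250 as reported) between E2A-KO LMPP and WT LMPP, 1214 to 7950 (6198) between WT LMPP and WT LSK FLT3-, and 1358 to 8537 (6822) between E2A-KO LMPP and WT LSK FLT3-. With 2 arrays a group and most members in the compressed low range, changes near the floor were read with little precision.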

Other observations

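Some probe sets of the clusters belong to no measured Hox gene. Hoxb5os, an antisense transcript of the Hoxb cluster, had 4.65 and 5.11 in E2A-KO LMPP, 5.44 and 5.22 in WT LMPP, and 6.25 and 6.46 in WT LSK FLT3-. Both LMPP groups lay below WT LSK FLT3-, with log2 changes of -1.47 for E2A-KO LMPP (adjusted p = 0.000758, limma over all 45101 probe sets) and -1.02 for WT LMPP (adjusted p = 0.00484). Hoxd3os1, an antisense transcript of the Hoxd cluster, was read near the floor by 2 probe sets, with changes of 0.96 (adjusted p = 0.0188) and 0.16 (adjusted p = 0.463) between WT LMPP and WT LSK FLT3-.

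A probe set annotated with 2 Hoxb symbols had 3.71 and 4.08 in E2A-KO LMPP, 3.19 and 2.86 in WT LMPP, and 2.94 and 2.97 in WT LSK FLT3-. E2A-KO LMPP lay above both WT groups, by 0.87 over WT LMPP (adjusted p = 0.0611) and 0.94 over WT LSK FLT3- (adjusted p = 0.00477). The second probe set of Hoxd13, the last gene of the Hoxd cluster, had 3.68 and 3.82 in E2A-KO LMPP, 3.15 and 2.99 in WT LMPP, and 3.10 and 3.05 in WT LSK FLT3-. It too was higher in E2A-KO LMPP, by 0.68 over WT LMPP (adjusted p = 0.0662) and 0.67 over WT LSK FLT3- (adjusted p = 0.00779). All these values are near the floor, and these probe sets were chosen after their values were seen.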
